A study of Mus musculus with 18 samples.

Results

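The untreated p65 knock-out line was compared with the untreated wild-type line. The comparison rested on the 2 libraries of untreated p65 KO cells and the 2 libraries of untreated WT cells, which were taken by the group name that starts their column, and they were 4 of 18 libraries in all. The lines were immortalized mouse embryonic fibroblasts (MEFs), connective tissue cells from mouse embryos that have been adapted to grow without limit. The study held 3 such lines, WT, p65 KO and IKK2 (IKK beta) KO, each untreated or given 10 ng/ml TNF alpha for 45 or 90 min, with 2 libraries in each of the 9 groups. RNA was taken from cells grown in DMEM with 10% FBS, and no cell of the 4 libraries compared here had received TNF. The labels give 1 line for each genotype, with no statement of how many clones it came from or how it was immortalized, so the genotype and the line cannot be told apart in what follows. The libraries are called a and b here, and nothing in the labels says that they came from separate cultures, so the p-values below measure only the spread between these libraries, which may be technical.

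p65, encoded by Rela, is a subunit of NF-κB, a family of transcription factors that pair up from p65, RelB, c-Rel, p50 and p52. In resting cells most p65 dimers are held in the cytoplasm by IκB proteins. TNF binding to its receptor activates the IKK complex, which marks IκB for breakdown, and freed p65 then enters the nucleus and switches on genes for chemokines, adhesion molecules, survival factors and its own inhibitors. In fibroblasts this pathway is known for the inflammatory response to TNF, while the levels compared here are those before any stimulus.

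Between 16708346 and 23469439 fragments were counted in each of the 18 libraries, 23469439 and 19173102 in untreated WT and 22923565 and 20767589 in untreated p65 KO. Levels below are CPM, counts scaled to the size of the library, after TMM scaling, a difference is the log2 of p65 KO over WT with its standard error, and a gene is called at an adjusted p under 0.05 in edgeR's quasi-likelihood test over all 16322 genes tested. The 2 libraries of a line were close to each other, with a correlation of log levels across genes of 0.9953 in WT and 0.9956 in p65 KO against 0.8778 to 0.8805 between the lines. Of the genes tested, 13196 (80.8%) were called, 6492 higher (39.8%) and 6704 lower (41.1%) in p65 KO, and 4478 of these calls were of less than 1.5-fold. A call alone therefore separates few genes from the rest, and the lists below are read at the stricter rule of a call with at least 2-fold, which 1970 genes (12.1%) met as higher and 3774 (23.1%) as lower in p65 KO. Among the 12315 protein-coding genes tested, 12.9% were higher and 16.4% lower by that rule. The 2 libraries of one line did not overlap with those of the other for 44.1% of genes as higher in p65 KO and 45.4% as lower. The median difference over all genes was -0.02, and the median over protein-coding genes was 0.08.

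**Figure D1:**
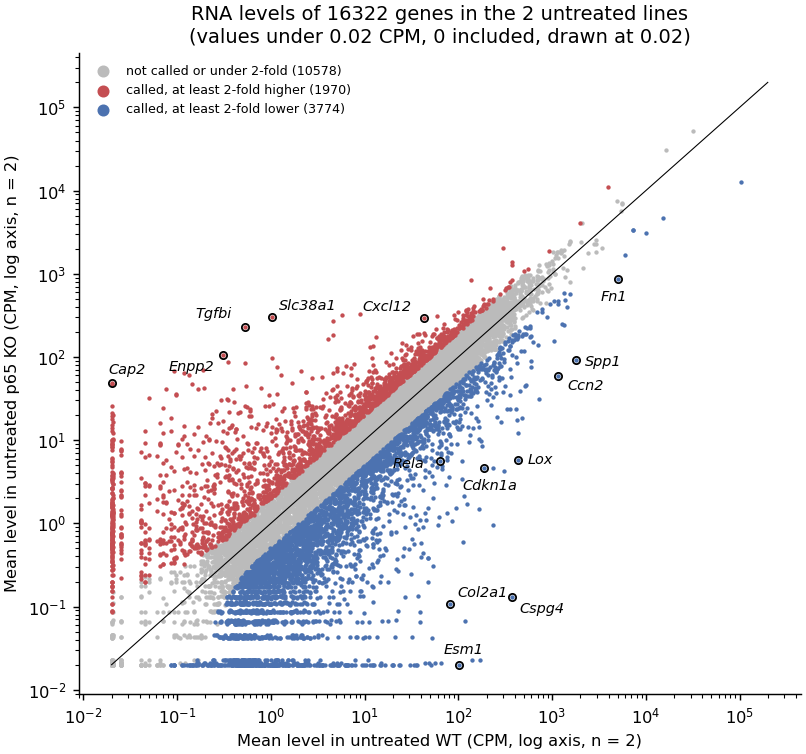
Mean level of each of 16322 genes in untreated WT (horizontal) and untreated p65 KO (vertical), in CPM on log axes, 2 libraries per line, with genes called at least 2-fold higher in red and at least 2-fold lower in blue. Genes drawn at 0.02 CPM include those with no count in a line, and labelled genes such as Esm1, Cspg4, Cap2 and Tgfbi lie far from the line of equal levels.

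Rela, the gene targeted in the knock-out, stood at 64.4 and 63.2 CPM in WT and 6.11 and 5.25 CPM in p65 KO. The groups did not overlap, and the difference was -3.49 ± 0.07 (adjusted p = 1.38e-36). Rela (ENSMUSG00000024927) lies on chromosome 19, from 5637483 to 5648130 in GRCm38. The p65 KO libraries still held 147 and 115 fragments assigned to Rela, and the table gives 1 value for the whole gene, so which exons they came from was not analysed here. In untreated IKK2 KO cells Rela stood at 67 and 72.4 CPM. Ikbkb, which encodes IKK2, stood at 60.4 and 59.3 CPM in WT and 42.7 and 42.7 CPM in p65 KO and at 43.1 and 43.7 CPM in IKK2 KO. At the level of the whole gene Ikbkb therefore did not separate the p65 KO line from the line labelled IKK2 KO.

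The other NF-κB subunit genes did not move as a block. Nfkb2, which encodes the p100 precursor of p52, stood at 53.7 and 53.5 CPM in WT and 106 and 105 CPM in p65 KO. Its groups did not overlap, with a difference of 0.97 ± 0.04 (adjusted p = 8.66e-26). Relb, the usual partner of p52, stood at 6.36 and 7.25 CPM in WT and 13.3 and 14.2 CPM in p65 KO, a difference of 1.02 ± 0.09 (adjusted p = 3.99e-13). The increase in Relb was just above 2-fold, and that of Nfkb2 was just below it. Nfkb1, which encodes the p105 precursor of p50, was called lower by a small step of -0.21 ± 0.03. Rel, which encodes c-Rel, stood at 25.9 and 25.5 CPM in WT and 25.3 and 24.6 CPM in p65 KO, a difference of -0.04 ± 0.06 (adjusted p = 0.556), and was not called with TMM scaling. With upper-quartile scaling, which moves the median of all genes by -0.09, Rel came to -0.13 (adjusted p = 0.0439). Per kilobase of exon, a scale on which genes can be set against each other, the order of levels in WT was Rela (20.8 CPM per kilobase), Nfkb2 (11.7), Nfkb1 (11.1), Rel (3.44) and Relb (1.75). In p65 KO it was Nfkb2 (23), Nfkb1 (9.60), Relb (3.54), Rel (3.35) and Rela (1.85).

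Of 17 listed inhibitors and feedback genes of NF-κB, 16 were tested, 10 were called higher and 6 lower, and by the 2-fold rule 4 were higher and 3 lower. The median difference was 0.49, against -0.02 for all genes, of which 39.8% were called higher and 41.1% lower. Nfkbia, which encodes IκBα, the main p65 inhibitor, stood at 15.2 and 15.6 CPM in WT and 33.1 and 33.5 CPM in p65 KO. The groups did not overlap, and the difference was 1.12 ± 0.06 (adjusted p = 3.61e-20). Cyld, a deubiquitinase that removes the ubiquitin chains of the TNF receptor complex, stood at 112 and 113 CPM in WT and 246 and 242 CPM in p65 KO, a difference of 1.12 ± 0.03. Nfkbie, which encodes IκBε, rose from 1.44 and 1.52 to 4.69 and 4.57 CPM. Bcl3, an atypical IκB that works with p50 and p52 in the nucleus, rose from 0.452 and 0.71 to 5.65 and 4.98 CPM, with both p65 KO libraries above both WT libraries. Tnfaip3 (A20), Tnip1, Tnip2 and Nfkbib were called higher by 0.46, 0.52, 0.39 and 0.71. The call for Tnip2 was lost in DESeq2 (adjusted p = 0.0509).

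Of the 6 members called lower, 3 fell past 2-fold. Tnfaip2, a TNF-induced gene, stood at 53.7 and 52.9 CPM in WT and 13.2 and 12.6 CPM in p65 KO, a difference of -2.05 ± 0.06 with no overlap. Nlrc5, which drives transcription of MHC class I genes, stood at 2.26 and 2.23 CPM in WT and 0.0415 and 0.183 CPM in p65 KO, and Nfkbid, which encodes IκBNS, at 1.07 and 1.06 CPM in WT and 0 and 0 CPM in p65 KO. Nfkbid had no count in p65 KO and was at least 16.3-fold lower, taking 3 counts over both libraries as the floor. Nfkbiz (IκBζ), Zc3h12a (Regnase-1) and Otud7b were called lower by -0.92, -0.70 and -0.09. The call for Otud7b was lost when all genes with a count were tested (difference -0.06) and without WT library b or p65 KO library a (-0.05 each).

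The promoters of a few of these genes hold the letters of a κB site, the DNA motif that NF-κB dimers bind, and 5 of 8 such promoters are shown, from genes higher in the line without p65 (Nfkbia, Cyld, Cxcl1 and Cxcl10) and from a gene that was lower (Csf1). Each run is the 250 bases before the gene's start in RefSeq's GRCm38.p6 annotation, 5′ to 3′ on the strand of the gene, and capitals mark every match on either strand of a strict κB motif, GGGA followed by any 2 bases and TTCC, 2 overlapping matches in Cxcl1. The Cxcl1 run is 4 bases shorter.
Nfkbia, chr12:55492648-55492897, minus strand: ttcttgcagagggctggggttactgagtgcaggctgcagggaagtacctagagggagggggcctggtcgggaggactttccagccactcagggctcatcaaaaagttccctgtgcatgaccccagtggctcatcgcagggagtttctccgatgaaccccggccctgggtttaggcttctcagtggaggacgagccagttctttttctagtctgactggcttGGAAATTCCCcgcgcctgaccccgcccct
Cyld, chr8:88696778-88697027, plus strand: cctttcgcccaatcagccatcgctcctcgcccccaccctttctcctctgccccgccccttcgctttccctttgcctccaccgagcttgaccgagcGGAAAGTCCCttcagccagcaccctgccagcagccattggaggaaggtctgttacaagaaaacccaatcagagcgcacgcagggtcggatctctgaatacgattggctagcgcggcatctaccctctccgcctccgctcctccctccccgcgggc
Cxcl1, chr5:90890995-90891240, plus strand: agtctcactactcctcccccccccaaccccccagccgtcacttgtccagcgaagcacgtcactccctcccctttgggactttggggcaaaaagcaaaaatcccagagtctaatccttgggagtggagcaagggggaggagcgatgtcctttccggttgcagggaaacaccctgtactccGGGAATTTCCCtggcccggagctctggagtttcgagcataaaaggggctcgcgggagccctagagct
Cxcl10, chr5:92348890-92349139, minus strand: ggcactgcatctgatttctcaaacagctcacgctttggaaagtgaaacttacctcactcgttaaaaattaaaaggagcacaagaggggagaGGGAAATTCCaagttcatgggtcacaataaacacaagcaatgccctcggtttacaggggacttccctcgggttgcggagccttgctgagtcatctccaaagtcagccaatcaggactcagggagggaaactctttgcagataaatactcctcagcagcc
Csf1, chr3:107760470-107760719, minus strand: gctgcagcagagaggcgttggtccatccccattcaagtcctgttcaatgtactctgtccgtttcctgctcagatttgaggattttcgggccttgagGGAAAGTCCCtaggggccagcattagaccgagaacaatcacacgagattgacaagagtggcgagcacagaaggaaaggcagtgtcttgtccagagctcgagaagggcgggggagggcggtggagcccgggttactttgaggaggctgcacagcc
The first capital lies 29 bases before the start of Nfkbia, 71 before Cxcl1, 154 before Csf1, 155 before Cyld and 159 before Cxcl10. Of the genes tested, 10159 had a single-gene RefSeq promoter window, and 1.40% of them held the strict motif in these 250 bases. The share was 1.71% (22 of 1288) among genes called at least 2-fold higher and 1.31% (22 of 1683) among genes called at least 2-fold lower. Of 41 genes from the lists of subunits, inhibitors, chemokines and inflammatory effectors, 8 (19.5%) held it. Of these, Nfkbia, Cyld, Cxcl1, Cxcl10 and Nfkb2 were called higher and Csf1 and Tlr3 lower, and Cxcl2 had no count in either untreated line. A looser motif, GGGA followed by any 4 bases and CC, which every strict match also meets, was counted in the same way. It was found for 26.1% of the 10159 genes, 27.3% of the higher and 27.5% of the lower genes. In these shares a gene with several windows counts if any of them holds the motif. A match is a description of the letters and does not show that a site is used.

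In the 28 genes of the TNF receptor complex, its TRAF adaptors and the IKK complex that were tested, 2 were higher and 2 lower by the 2-fold rule, shares of the size seen in all genes or below, with a median difference of -0.06. Traf1, an adaptor that binds TRAF2, rose from 0.657 and 0.659 to 5.77 and 5.16 CPM. Tab3, which links ubiquitin chains to the kinase TAK1, rose from 21.4 and 19.9 to 59 and 55.9 CPM. Birc3 (cIAP2), a ubiquitin ligase of the receptor complex, fell from 2.05 and 2.28 to 0.166 and 0.274 CPM, and Ikbke, an IKK-related kinase of the interferon response, from 8.25 and 8.62 to 1.95 and 2.28 CPM. The groups did not overlap for any of the 4. Tnfrsf1a, the main TNF receptor, was called higher by 0.42, with 46.6 and 45 CPM in WT and 62.8 and 60.03 CPM in p65 KO.

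Chemokine genes were mostly higher in the p65 KO line. Of 12 tested, 7 were higher and 1 lower by the 2-fold rule, with a median difference of 1.98, although most were at low levels. Cxcl12, a chemokine that fibroblasts make without stimulus and that attracts CXCR4-bearing cells, stood at 43.4 and 42.3 CPM in WT and 290.5 and 291 CPM in p65 KO, a difference of 2.76 ± 0.04 (adjusted p = 1.08e-43) with no overlap. Cxcl1, a neutrophil attractant, had 0 and 1 fragments in WT and stood at 6.81 and 8.81 CPM in p65 KO, a ratio of 342 with a 95% counting interval of 61 to 13600. Ccl2, which attracts monocytes, rose from 0.123 and 0.101 to 1.95 and 1.6 CPM, and Cxcl10, which attracts T cells, from 0.205 and 0.0507 to 1.54 and 2.15 CPM. These low values were still far under those of treated WT cells, in which Ccl2 stood at 63.2 and 61.7 CPM after 45 min of TNF. Ccl9 went the other way, from 5.91 and 5.78 to 0.0831 and 0.228 CPM, and Ccl25 was called lower by -0.86. With only the 4 libraries in the fit, 7 chemokines passed the filter on low counts and 4 were higher by the 2-fold rule.

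Inflammatory effectors and adhesion molecules were mostly lower. Of 20 tested, 2 were higher and 10 lower by the 2-fold rule, with a median difference of -0.94. Ptgs2 (COX-2), which makes prostaglandin precursors, stood at 1552 and 1547 CPM in WT and 578 and 565 CPM in p65 KO, a difference of -1.44 ± 0.02 with no overlap. Csf1, the macrophage growth factor, stood at 369.8 and 371 CPM in WT and 158 and 162 CPM in p65 KO, a difference of -1.21 ± 0.03, and in IKK2 KO at 599 and 589.8 CPM. Il11, a cytokine of stromal cells, fell from 12.1 and 9.28 to 1.37 and 1.37 CPM. The receptors Tlr3 and Tlr4, which sense double-stranded RNA and bacterial lipopolysaccharide, fell by 2.53 and 2.25 on the log2 scale. Of the 5 members called higher, the 2 past 2-fold were adhesion molecules of the vessel wall. Vcam1 rose from 2.63 and 2.74 to 17.8 and 17 CPM, and Sele (E-selectin) from 0.205 and 0.152 to 2.16 and 3.2 CPM.

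Among 21 survival and cell death genes, 3 were higher and 7 lower by the 2-fold rule, with a median of -0.33. Cflar, which encodes c-FLIP, an inhibitor of caspase-8 that protects cells from TNF, stood at 233 and 239 CPM in WT and 33 and 33.1 CPM in p65 KO, a difference of -2.84 ± 0.04 (adjusted p = 3.20e-43) with no overlap. Pmaip1 (Noxa), a promoter of cell death, fell from 26.1 and 27.1 to 1.83 and 2.15 CPM. Ier3, an early survival gene, rose from 60.1 and 54.8 to 220.5 and 214 CPM. Ripk3, the kinase of necroptosis, had no count in WT and stood at 0.914 and 1.1 CPM in p65 KO, at least 14.7-fold higher. Protective and death-promoting genes were thus found in both directions.

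Of 27 interferon-stimulated genes tested, 2 were higher and 13 lower by the 2-fold rule, with a median of -1.08. Trim25, a ubiquitin ligase of the RIG-I pathway, stood at 30.2 and 30.1 CPM in WT and had no count in p65 KO, at least 462-fold lower, and stood at 45.9 and 48 CPM in IKK2 KO. Ifit2, an antiviral protein, fell from 40.4 and 39.7 to 10.9 and 11 CPM, and Irf1, a transcription factor induced by interferon and TNF, rose from 5.99 and 4.51 to 14.2 and 14.5 CPM. The summed level of the list was 118 to 127 CPM in WT and 56.9 to 59.0 CPM in p65 KO, so most of its members were scarce in both lines. MHC class I presentation genes went the other way, with 6 of 16 higher and 1 lower by the 2-fold rule and a median of 0.81. H2-M3, a class I-like molecule, rose from 0.452 and 0.355 to 7.19 and 7.67 CPM, Tap2, a peptide transporter, from 1.27 and 0.964 to 5.19 and 5.16 CPM and Psmb10, an immunoproteasome subunit, from 4.51 and 4.41 to 20.1 and 18.9 CPM. H2-T23 fell from 3.41 and 3.85 to 0.665 and 0.548 CPM, and near-identical class I genes can share reads.

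**Figure D2:**
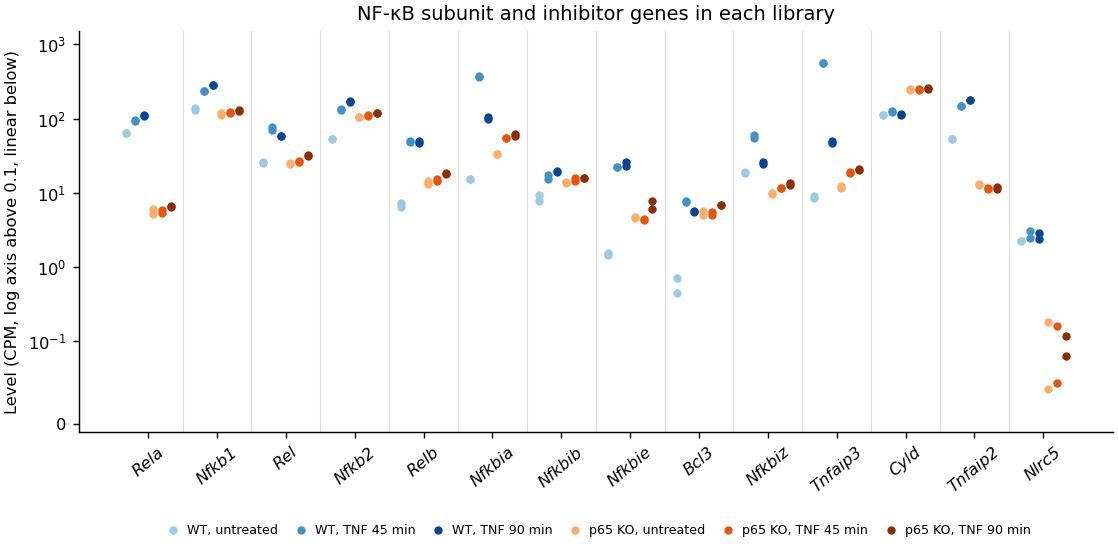
Level in CPM (log axis above 0.1, linear below) of 14 NF-κB subunit and inhibitor genes in each of the 6 WT libraries (blue) and 6 p65 KO libraries (orange), untreated and after 45 or 90 min of TNF, 1 point per library. Nfkbia and Tnfaip3 are above WT in untreated p65 KO and below WT at 45 min of TNF, while Rela is near 6 CPM in all 6 p65 KO libraries.

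Many differences of NF-κB genes had another sign once TNF was present, in libraries that share none with the untreated comparison. Nfkbia stood at 368 and 377 CPM in WT and 54.2 and 55.5 CPM in p65 KO at 45 min, a difference of -2.77 against 1.12 untreated. Tnfaip3 stood at 563 and 552 CPM in WT and 19 and 18.7 CPM in p65 KO at 45 min, a difference of -4.89 against 0.46 untreated. The change in the difference passed the test for both, by -3.88 (adjusted p = 7.14e-36) and -5.34 (adjusted p = 1.86e-34). Of the 16 inhibitors, 1 was higher and 8 lower by the 2-fold rule at 45 min, and of the 12 chemokines 3 were higher and 5 lower. Of all genes 12% were higher and 23.9% lower by that rule at 45 min, and 11.8% and 22.3% at 90 min. Cyld did not show this, with differences of 1 at 45 min and 1.15 at 90 min against 1.12 untreated.

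Targets of p53, the transcription factor that halts the cycle or kills cells after DNA damage, were lower in p65 KO as a list. Of 26 tested, a list that also holds Cdkn2a, 4 were higher and 15 lower by the 2-fold rule, with a median of -1.51. Cdkn1a (p21), the cycle inhibitor that p53 induces, stood at 191 and 188 CPM in WT and 5.07 and 4.11 CPM in p65 KO. The groups did not overlap, and the difference was -5.36 ± 0.06 (adjusted p = 3.69e-46). Ccng1 fell from 514 and 514 to 44.8 and 45.1 CPM and Mdm2, the ligase that degrades p53, from 207 and 215 to 35.2 and 36.1 CPM. Trp53inp1, Btg2 and the death receptor gene Fas fell by 5.71, 4.05 and 5 on the log2 scale. Trp53 itself rose from 106 and 105 to 166 and 164 CPM, and Cdkn2a, which encodes p16 and p19ARF, from 6.2 and 5.63 to 62.3 and 66.2 CPM. In IKK2 KO, Cdkn1a stood at 33.3 and 31.9 CPM and Cdkn2a at 4.58 and 4.33 CPM. Untreated IKK2 KO against WT gave 1 of the 26 higher and 17 lower by the 2-fold rule, with a median of -1.39. The list was thus lower than WT in both knock-out lines.

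DNA replication and mitosis genes were called higher in 28 and lower in 6 of 36, beside 39.8% and 41.1% of all genes. Most steps were small, with 5 higher and 2 lower by the 2-fold rule and a median of 0.61. Past 2-fold in either direction were 19.4% of the list, beside 35.2% of all genes. Mcm2, part of the replicative helicase, stood at 123 and 126 CPM in WT and 345 and 351 CPM in p65 KO, and Bub1b, a mitotic checkpoint kinase, at 67.1 and 68.6 CPM in WT and 188 and 180.4 CPM in p65 KO. Ccne1 (cyclin E1) rose from 20.03 and 19.3 to 45.8 and 44.9 CPM, and E2f8, a repressor of E2F targets, fell from 138 and 139 to 53.2 and 52.7 CPM. Mki67, the proliferation marker Ki-67, stood at 889 and 905 CPM in WT and 894 and 889 CPM in p65 KO, a difference of -0.01 ± 0.02 (adjusted p = 0.773) that did not pass the test. With upper-quartile scaling or in the fit of protein-coding genes alone Mki67 was called lower by a difference of -0.10.

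Immediate-early genes, which growth factors and serum switch on within minutes, were called lower in 31 and higher in 4 of 36. Of all genes, 41.1% were called lower and 39.8% higher. By the 2-fold rule 21 of the 36 were lower and 2 higher, beside 23.1% and 12.1% of all genes, with a median of -1.56. Ccn2 (CTGF), a target of serum and YAP signalling, stood at 1176 and 1149 CPM in WT and 59.1 and 59.6 CPM in p65 KO, a difference of -4.29 ± 0.04 with no overlap. Egr2 and Egr3, zinc finger factors of the growth factor response, fell from 40.1 and 40.3 to 0.748 and 0.411 CPM and from 172 and 175 to 9.3 and 10.2 CPM. Spry4, a feedback inhibitor of the ERK pathway, fell from 47.1 and 48.2 to 1.58 and 1.46 CPM. Atf3 and Zfp36l1 were the 2 members that rose past 2-fold, by 3.38 and 2.08.

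Receptor tyrosine kinases and their ligands were lower in 25 and higher in 8 of 46 by the 2-fold rule, with a median of -1.10. The receptor genes Egfr and Flt1 (VEGF receptor 1) fell from 73.3 and 73 to 7.85 and 8.04 CPM and from 33.3 and 34.5 to 0.54 and 0.594 CPM. The PDGF receptor genes split, with Pdgfrb lower, from 48.5 and 46.7 to 11.4 and 10.9 CPM, and Pdgfra higher, from 17.6 and 18.7 to 63.3 and 60.9 CPM. Among the ligands, Fgf10 fell from 37.2 and 36.8 to 0.54 and 1.19 CPM, Hgf rose from 0.657 and 0.507 to 19.6 and 19.2 CPM, and Vegfc, the lymphatic growth factor, went from no count to 14.3 and 13.5 CPM, at least 205-fold higher. The lines thus differed in which growth factor RNAs were found as well as in their levels.

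Wnt pathway genes showed 6 higher and 13 lower of 24 by the 2-fold rule, with a median of -1.08. The ligand gene Wnt10a fell from 36 and 38.9 to 0.0831 and 0.183 CPM, while the ligand genes Wnt4 and Wnt5b rose from 0.246 and 0.507 to 14.9 and 13.6 CPM and from 0.492 and 0.355 to 13 and 14.1 CPM. Rspo2, an enhancer of Wnt signals, stood at 8.04 and 8.32 CPM in WT and at 1 fragment in each p65 KO library, a ratio of 188 with a 95% counting interval of 51.6 to 1560 for WT over p65 KO. In the TGF-beta, BMP and activin list 3 of 27 were higher and 11 lower, with a median of -0.90. Inhbb, an activin subunit, stood at 35.8 and 35.3 CPM in WT and had no count in p65 KO, at least 545-fold lower. Grem1, a BMP antagonist, fell from 117 and 115 to 2.33 and 1.92 CPM. Bmp7 had no count in WT and stood at 19.8 and 19.8 CPM in p65 KO, at least 291-fold higher, and Id4, a factor that BMP signals induce, rose from 1.76 and 1.62 to 48.6 and 47.9 CPM.

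Most genes of the extracellular matrix were lower in p65 KO. Fn1 (fibronectin), the most abundant gene of the matrix list in WT, stood at 5063 and 5102 CPM in WT and 861 and 855 CPM in p65 KO, a difference of -2.57 ± 0.03 with no overlap. Lox, which crosslinks collagen and elastin, stood at 435 and 436 CPM in WT and 5.82 and 5.75 CPM in p65 KO, a difference of -6.23 ± 0.05. Of 28 matrix glycoproteins, proteoglycans and crosslinkers, 6 were higher and 14 lower by the 2-fold rule, with a median of -0.97, and the summed level was 13500 to 13800 CPM in WT and 4710 to 4770 CPM in p65 KO. Of 21 collagen genes, 4 were higher and 9 lower, with a median of -0.97. Col1a1 and Col3a1, the fibrillar collagens of connective tissue, fell from 1153 and 1172 to 463 and 476 CPM and from 334 and 330.5 to 23.9 and 23.8 CPM, and Col2a1, the cartilage collagen, from 83.5 and 78.6 to 0.12 and 0.0913 CPM. Col4a1, Col4a2 and Col4a6, which encode chains of collagen IV and are among the members with the largest differences, rose and stood at 10.9 and 11.4, 9.26 and 8.72 and 31.7 and 29.7 CPM in p65 KO and at or under 0.406 CPM in WT. Fbln1 (fibulin-1) rose from 0.287 and 0.0507 to 41.7 and 40.3 CPM, and Acan (aggrecan) from no count to 14.7 and 16 CPM, at least 225-fold higher.

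Of 12 matrix metalloproteinase and TIMP genes tested, 8 were lower and 0 higher by the 2-fold rule, with a median of -1.41. At an unadjusted p under 0.05, 0 of the 12 were higher, and by the 2-fold rule DESeq2 and limma-voom gave 0 higher. When every gene with a count was tested, 3 members were higher by the 2-fold rule, and 1 or 2 were when a library was left out, since more members then passed the filter on low counts. The inhibitors Timp1, Timp2 and Timp3 fell together, Timp2 from 716 and 711 to 139.7 and 141 CPM, with differences of -1.56, -2.35 and -1.97. Of 15 contractile genes, 0 were higher and 8 lower by the 2-fold rule, with a median of -1.03. At an unadjusted p under 0.05, 2 of the 15 were higher, each by less than 2-fold, and DESeq2 and limma-voom also gave 0 past 2-fold higher. Tagln (SM22), an actin-binding protein of smooth muscle and myofibroblasts, fell from 115 and 106 to 5.77 and 5.43 CPM, and Itgb3 (integrin β3) from 36.3 and 29.6 to 1.62 and 1.51 CPM.

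**Figure D3:**
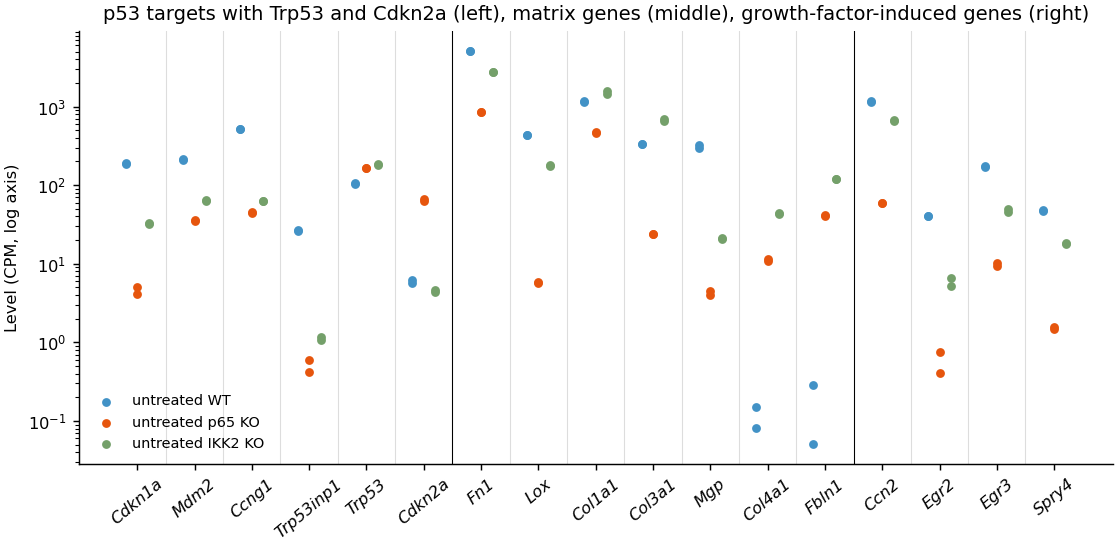
Level in CPM (log axis) of p53 targets with Trp53 and Cdkn2a (left), matrix genes (middle) and growth-factor-induced genes (right) in the 2 untreated libraries of WT (blue), p65 KO (orange) and IKK2 KO (green). The 2 libraries of a line lie close together at most genes, and Cdkn1a, Lox, Col3a1 and Ccn2 are lower in p65 KO than in both other lines.

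**Figure D4:**
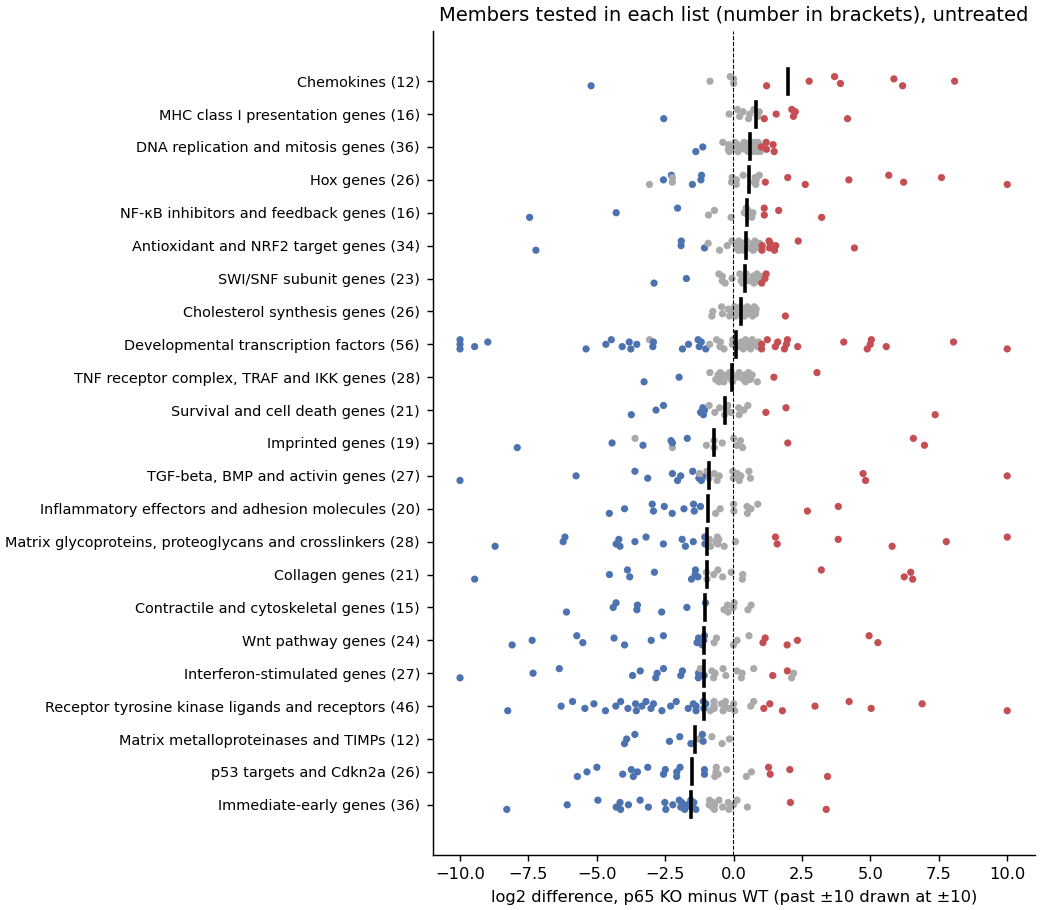
Log2 difference between untreated p65 KO and untreated WT for each tested member of 23 gene lists, with members called at least 2-fold higher in red and at least 2-fold lower in blue, the list's median as a black bar and the median of all genes as a dashed line. Chemokines have the highest median (1.98) and immediate-early genes the lowest (-1.56), and most lists hold members in both directions. Of the 12 chemokines, 4 had no count in untreated WT and 2 had none in untreated p65 KO, so their median rests partly on scarce genes.

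Genes that set position and cell identity in the embryo differed between the lines in both directions. Of 56 developmental transcription factors tested, 16 were higher and 20 lower by the 2-fold rule. Ebf3 stood at 36.8 and 36.5 CPM in WT and had no count in p65 KO, at least 562-fold lower, and Irx2 and Irx1, neighbouring homeobox genes, were at least 252-fold and 100-fold lower. Tfap2a, a factor of neural crest and ectoderm, had no count in WT and stood at 20.9 and 21.8 CPM in p65 KO, at least 313-fold higher. Of 26 Hox genes, which mark position along the body axis, 8 were higher and 5 lower by the 2-fold rule, with a median of 0.55. Hoxd9 had no count in WT and stood at 9.35 and 8.67 CPM in p65 KO, at least 133-fold higher, and Hoxb9 rose from 0.0821 and 0.507 to 5.73 and 4.52 CPM, against 71.1 and 68 CPM in IKK2 KO.

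Among genes of at least 2 CPM in 1 line, 39 had no count in untreated WT and 64 had none in untreated p65 KO, of which 36 and 54 were protein-coding. Of the 39, 33 stayed below 0.1 CPM in all 4 WT libraries given TNF, and 37 were at 2 CPM or more in all 4 p65 KO libraries given TNF. Of the 64, 58 stayed below 0.1 CPM in the 4 p65 KO libraries given TNF, and 54 were at 2 CPM or more in the 4 WT libraries. No count at all in the 4 TNF libraries of the silent line was found for 18 of the 39 and 18 of the 64. In libraries that the choice did not use, levels near 0 were therefore seen again for most genes, but a full lack of counts for fewer. In IKK2 KO, 7 of the 39 and 12 of the 64 were at 2 CPM or more, and 17 and 22 had no count.

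By size, the genes furthest below WT were led by Esm1 (endocan), a secreted proteoglycan, at 101 and 100.1 CPM in WT with no count in p65 KO, at least 1540-fold lower. Trpa1, an irritant-sensing ion channel, was at least 783-fold lower. Nptx1 and Sulf1, a sulfatase that trims heparan sulfate, stood at 169 and 174 CPM and 144 and 139 CPM in WT and had 0 and 1 fragments in p65 KO. Among genes of at least 100 CPM, Cspg4 (NG2), a surface proteoglycan of mesenchymal cells and pericytes, stood at 374 and 373 CPM in WT and 0.12 and 0.137 CPM in p65 KO, a difference of -11.42 ± 0.15. Cdh11, a cadherin of fibroblasts, fell from 116 and 118 CPM to 3 fragments over both libraries, a ratio of 1790 with a 95% counting interval of 613 to 8700, and Grb10, an imprinted adaptor that damps insulin signals, from 230.3 and 233 to 0.955 and 0.959 CPM. Cdh11 was near 0 in IKK2 KO too (0.0619 and 0.057 CPM), whereas Grb10 stood at 335 and 337 CPM there.

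The genes furthest above WT were led by Cap2, an actin regulator, and Gdnf, a neurotrophic factor, with no count in WT and 50.4 and 45.6 CPM and 47.4 and 47.2 CPM in p65 KO. They were at least 707-fold and 696-fold higher. Among genes of at least 100 CPM, Tgfbi, a matrix protein, stood at 0.616 and 0.457 CPM in WT and 229 and 224 CPM in p65 KO, a difference of 8.68 ± 0.09. Enpp2 (autotaxin), which makes lysophosphatidic acid, rose from 0.41 and 0.203 to 108 and 103 CPM, and Slc38a1, a glutamine transporter, from 0.985 and 1.06 to 303 and 302 CPM. Thbs2 (thrombospondin-2) rose from 5.87 and 5.48 to 319.7 and 312 CPM and Cd24a, a surface glycoprotein, from 9.48 and 8.22 to 336 and 318 CPM. In IKK2 KO, Slc38a1 and Thbs2 were also high, at 197 and 191 CPM and 216 and 213 CPM, while Enpp2 stood at 0.681 and 0.171 CPM and Cd24a at 1.73 and 1.65 CPM.

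Of 34 antioxidant and NRF2 target genes, 9 were higher and 4 lower by the 2-fold rule, with a median of 0.46, led by Gsta4, a glutathione transferase, from 0.657 and 0.811 to 16.7 and 14.4 CPM. Of 26 cholesterol synthesis genes, 1 was higher and 0 lower, the member Scd2, a fatty acid desaturase, from 377 and 368 to 1391 and 1375 CPM. At an unadjusted p under 0.05, 6 of the 26 were lower, each by less than 2-fold, and DESeq2 and limma-voom also gave 0 past 2-fold lower. Of 23 SWI/SNF subunit genes, 3 were higher and 2 lower, and Smarca2 (BRM), 1 of the 2 ATPases of the complex, fell from 62.8 and 62.1 to 8.22 and 8.4 CPM. Of 19 imprinted genes, 3 were higher and 6 lower, with Dlk1, a Notch-related growth regulator, at 0.492 and 0.101 CPM in WT and 31.4 and 29.99 CPM in p65 KO. Of all genes tested, 35.2% were past 2-fold in either direction. The shares were 38.2% for the antioxidant, 3.85% for the cholesterol, 21.7% for the SWI/SNF and 47.4% for the imprinted list.

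The cells of both lines kept the profile of fibroblasts in part. Of 14 fibroblast and mesenchymal markers tested, 2 were higher and 5 lower by the 2-fold rule, and their summed level was 11400 CPM in WT and 4960 CPM in p65 KO, with Thy1 and Lum at or near 0 in both lines. Epithelial markers summed to at most 0.498 CPM and blood cell markers to at most 11 CPM in any of the 4 libraries. Cartilage and bone markers came to 1930 to 2030 CPM in WT and 232 to 238 CPM in p65 KO. In WT most of it was Spp1 (osteopontin), which fibroblasts can also express, at a mean of 1785 CPM. In p65 KO Spp1 stood at a mean of 90.9 CPM, less than the other markers of the list together. Skeletal muscle markers came to 21.6 to 22 CPM in WT and 6.69 to 7.03 CPM in p65 KO, and adipocyte markers to 8.29 to 9.43 CPM and 0.748 to 0.776 CPM. The endothelial markers came to 1.64 to 1.67 CPM in WT and 17 to 19.4 CPM in p65 KO. In p65 KO almost all of it was Eng (endoglin), which fibroblasts can also express, and Eng stood at a mean of 1.13 CPM in WT. Pecam1, Kdr and Tek were not tested for lack of counts. Neural markers came to 759 to 762 CPM in WT and 373 to 384 CPM in p65 KO, with Nes (nestin) going from 432 and 431 to 12.3 and 12 CPM. The neural markers did not move together. Of 7 tested, 1 was higher and 3 lower by the 2-fold rule, and Map2 rose from a mean of 17.9 to 37.3 CPM. In bulk libraries, fewer cells of a type and less RNA per cell cannot be told apart, and the part of other cell types in the results was not tested. Xist, the RNA of the inactive X chromosome, stood at 1352 and 1380 CPM in WT and 483 and 472 CPM in p65 KO and at 0.309 and 0 CPM in IKK2 KO, and the Y-linked genes Ddx3y, Uty, Kdm5d and Eif2s3y were not tested for lack of counts.

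Gene types differed in which way they moved. Of 989 loci of the TEC class, provisional gene models often inside other genes, 81.2% were lower and 2.02% higher by the 2-fold rule, with a median of -2.16. Sense intronic RNAs gave 84.0% lower of 162, with a median of -2.26. Long intergenic RNAs gave 48.3% lower of 412, and antisense RNAs 49.1% lower of 324. Such models often overlap other genes, whose reads cannot be told apart here because the strand setting of the counting is not given in the sources used. Long intergenic RNAs took 12.8% and 13.6% of counts in WT and 2.20% and 2.25% in p65 KO, most of it 2 genes with homology to ribosomal RNA, Gm26917 (99560 and 106700 CPM in WT and 12270 and 13100 CPM in p65 KO) and Gm42418 (14790 and 16070 CPM in WT and 4951 and 4505 CPM in p65 KO). A fit without these 2 genes and ribosomal RNA genes, added after seeing the data, gave 3763 genes past 2-fold lower and 1982 past 2-fold higher. When only protein-coding genes were fitted, 2178 genes were past 2-fold lower, the only setting tried that moved this count by over 1.5 times.

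The differences were not spread evenly over chromosomes. Chromosome 12 had a median difference of -0.79 over 621 genes, with 70.2% called lower and 12.7% called higher, and chromosome 18 a median of -0.58 over 442 genes. Chromosomes 6, 15, 4, 17 and X had medians of 0.36, 0.35, 0.34, 0.34 and 0.34. Over genes of at least 2 CPM alone, the median was -0.64 on chromosome 12, -0.46 on chromosome 18 and 0.54 on chromosome 6. The medians at 45 and 90 min of TNF, in other libraries of the same lines, were -0.83 and -0.78 on chromosome 12. Untreated IKK2 KO against WT gave -0.10 on that chromosome. On chromosome 14 the median was -0.12 overall but 1.12 from 0 to 10 Mb, where 55.4% of genes were past 2-fold higher. Most genes of that window were scarce, with 23 of 74 at a mean of 2 CPM or more and a median of 0.86 over these. Untreated IKK2 KO against WT gave a median of -2.22 over the window.

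**Figure D5:**
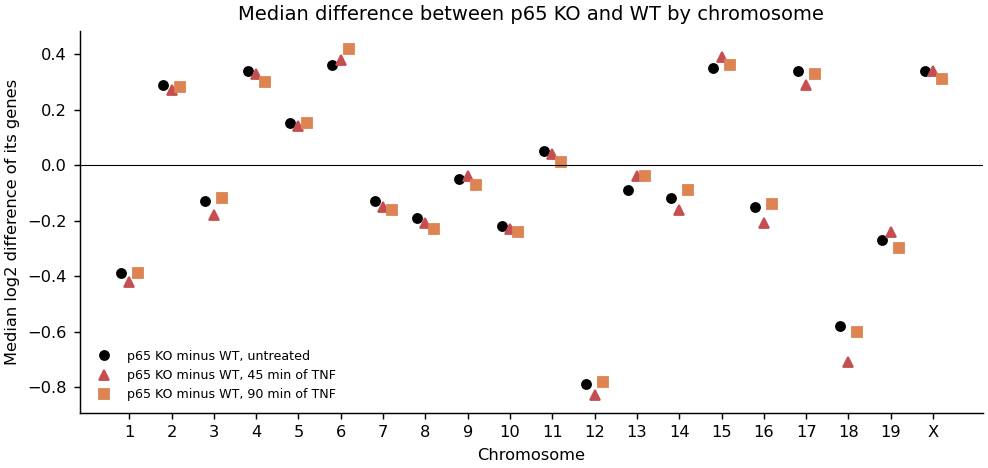
Median log2 difference between p65 KO and WT over the genes of each autosome and of chromosome X, untreated (black circles) and after 45 min (red triangles) and 90 min (orange squares) of TNF. Chromosome Y, with 5 genes tested and a median of -1.48 untreated, is not drawn. Of those drawn, chromosomes 12 and 18 lie lowest at all 3 times and chromosomes 2, 4, 6, 15, 17 and X lie above 0.2.

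Around the targeted gene, 155 genes within 2 Mb of Rela had a median difference of -0.41, with 3.87% past 2-fold higher and 27.7% past 2-fold lower, beside 12.1% and 23.1% of all genes. Chromosome 19 as a whole had a median of -0.27, with 7.91% past 2-fold higher and 25.2% lower. From 0 to 10 Mb, the part that holds Rela, its median was -0.38, with 5.42% higher and 26.1% lower. The nearest neighbours did not share the size of the fall in Rela. Sipa1 was higher by 0.43 and Pcnx3 lower, with a difference of -0.59. Kat5, on the other side of Rela, had a difference of -0.07 (adjusted p = 0.268), and was called only with upper-quartile scaling or in the fit of protein-coding genes (-0.17 and -0.16). Ltbp3, a binding protein of latent TGF-beta, and Malat1, a nuclear RNA, fell by 1.65 and 1.83 on the log2 scale.

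The same line difference was measured again in the libraries given TNF, which share none with the untreated comparison. At 45 min 80.4% of genes were called, and 12006 genes were called in the same direction at both, 91.0% of the untreated calls and 91.4% of the calls at 45 min, against 89 called in opposite directions. By the 2-fold rule 5058 genes were shared in direction, 88.1% and 86.4% of each list, and 11 were opposite. At 90 min 79.6% were called, 11990 were shared in direction (90.9% and 92.2%) and 63 were opposite. The cells are the same lines, so these shares say nothing about other p65-deficient cells. A change of the line difference passed the test for 1156 genes (7.08%) at 45 min and 880 (5.39%) at 90 min, and without p65 KO library a the count at 90 min was 581. DESeq2 gave 691 genes at 45 min and 489 at 90 min.

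The line labelled IKK2 KO gave another comparison with the same WT libraries. Since the WT libraries are shared, the values are given side by side only. Untreated IKK2 KO against WT gave 74.3% of genes called, with 10% past 2-fold higher and 17.6% past 2-fold lower. Its list medians were -1.64 for metalloproteinases and TIMPs and -1.28 for Wnt genes, beside -1.41 and -1.08 for p65 KO against WT. For collagens and immediate-early genes they were -0.09 and -0.65, beside -0.97 and -1.56. Untreated p65 KO against IKK2 KO gave 72.4% called, with 12.4% higher and 16.1% lower. Nfkbia stood at 40.8 and 42 CPM in IKK2 KO, beside 33.1 and 33.5 CPM in p65 KO, and Relb at 16.8 and 15.7 CPM beside 13.3 and 14.2 CPM. Bcl3 stood at 0.186 and 0.114 CPM in IKK2 KO beside 5.65 and 4.98 CPM in p65 KO, and Cyld at 79.8 and 79.3 CPM beside 246 and 242 CPM. Vcam1 stood at 125 and 126 CPM in IKK2 KO, above both other lines. Fn1 stood at 2789 and 2747 CPM and Lox at 181 and 177 CPM, between the levels of p65 KO and WT.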

How the data were processed

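RNA of 3 MEF lines was isolated with Trizol and columns, made into libraries with a strand-marking kit and sequenced as pairs of 76-base reads, per the labels' protocols. The submitters' processing notes name FastQC 0.11.8, Trimmomatic, HISAT2, featureCounts from Subread 1.6.2, edgeR 3.26.4 and the build GRCm38, without order. The authors deposited a table of expected counts of 55536 genes in 18 libraries, in which 31.8% of the values above 0 are not whole, so reads may have been shared between genes. No source used here states how reads matching several genes were counted, which strand setting was chosen or which release of the annotation was taken, and genes with near-identical copies or overlapping neighbours are uncertain.

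The deposited counts were rounded and 16322 genes passed edgeR's filter on low counts, which left out 0.0601% of all counts. R 4.3.3 and edgeR 4.0.16 were used with TMM scaling, 1 coefficient for each of the 9 groups, robust quasi-likelihood tests and Benjamini-Hochberg adjustment over all genes tested, with a threshold of 0.05 and a prior count of 0.125. The fit used all 18 libraries, which share 1 estimate of spread with 9 residual degrees of freedom. An exact permutation test of 2 libraries against 2 cannot go below p = 0.333. The tests were tried on simulated counts of 15643 genes for the untreated comparison, in which 92%, 98%, 100% and 100% of genes changed by 1.5, 2, 4 and 8-fold were called (50 genes at each size), with 8 false among 203 calls. All changed genes were at 2 CPM or more in WT, up and down in balance, and the spread was the fitted one. In the data 80.8% of genes were called. The simulation therefore does not cover scaling when most genes differ, scarce genes or variation between cultures. Counting intervals and floors are at 95% confidence and 3 counts and cover counting error only. All 55536 gene identifiers matched GENCODE's mouse annotation of GRCm38, which gave gene types and positions. Python 3.11.15 and matplotlib 3.10.9 drew the figures.

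The genes named are Rela, Ikbkb, the NF-κB subunits and inhibitors, the 12 largest differences in each direction at 2 CPM or more and the 8 largest at 100 CPM or more, from which some are described, and up to 4 members of each of 38 gene lists with the largest differences. Named after their values were seen, outside this rule, were Atf3, Ccl2, Ccng1, Cdkn2a, Col1a1, Csf1, Cxcl2, Cxcl10, Egfr, Mdm2, Mki67, Pdgfra, Ptgs2, Ripk3, Tlr4, Tnfrsf1a, Trp53, Zfp36l1, Gm26917, Gm42418 and the neighbours of Rela. The comparison, its gene lists and the 8 marker lists were chosen with earlier results of these data known. Alternatives were other scalings, DESeq2 1.42.0, limma-voom (limma 3.58.1), other filters, fewer libraries, each library left out, a larger prior count and protein-coding genes alone.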

Additional observations from a re-analysis of the deposited data

Results flagged for a closer look

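The genes below were marked because the difference between the p65 KO and WT lines changed between untreated cells and cells given TNF, by a test of that change itself in edgeR (1156 genes of all tested at 45 min and 880 at 90 min). Each value is the log2 difference between the lines under TNF less the log2 difference untreated, so a negative value means that p65 KO stood lower against WT once TNF was present. TNF-treated and untreated libraries are separate, with 2 per group. The genes come from those named above, many of them chosen for a large untreated difference. The change subtracts that same untreated value, so the choice itself favours a smaller difference under TNF. Changes of genes scarce in an untreated line rest on few counts there, as for Enpp2, Ccl2, Cxcl10 and Sele in WT.

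Among the NF-κB subunits, the change at 45 and 90 min was -2.76 and -2.44 for Relb, -1.23 and -1.49 for Nfkb2, -1.43 and -0.85 for Rel, -0.77 and -0.92 for Nfkb1 and -0.59 and -0.59 for Rela. Among the inhibitors it was -5.34 and -1.71 for Tnfaip3, -3.97 and -3.47 for Nfkbie, -3.88 and -1.90 for Nfkbia, -3.74 and -2.93 for Bcl3, -1.65 and -1.91 for Tnfaip2, -1.38 and -1.37 for Tnip1 and -0.82 and -0.97 for Nfkbib. At 45 min alone it passed the test for Nfkbiz (-1.39) and Zc3h12a (-1.59). All of these were lower in p65 KO against WT under TNF than untreated.

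Among chemokines, effectors and adaptors, the change at 45 and 90 min was -8.43 and -7.15 for Ccl2, -5.07 and -4.06 for Cxcl10, -4.81 and -4.36 for Vcam1, -4.58 and -1.70 for Irf1, -3.67 and -2.79 for Traf1, -3.06 and -2.54 for Sele, -0.97 and -1.25 for Csf1 and -0.81 and -0.22 for Ier3. At 45 min alone it was -3.18 for Cxcl1, which had 1 fragment in untreated WT, and -2.38 for Birc3. Ptgs2 went the other way, by 0.59 and 0.49, and Il11 by 1.46 at 45 min. At 90 min alone the change was -1.18 for Tap2, -0.72 for Psmb10 and 0.37 for Ifit2.

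Outside the inflammatory lists, the change at 45 and 90 min was 2.61 and 0.96 for Id4, -1.98 and -1.97 for Enpp2, 0.98 and 0.17 for Ccn2, 0.34 and 0.25 for Timp3, 0.33 and 0.64 for Gm26917, -0.36 and -0.33 for Trp53, -0.27 and -0.11 for Mki67 and -0.25 and -0.54 for E2f8. It changed sign for Btg2 (-1.01 and 0.62) and Xist (-0.45 and 0.18). At 45 min alone it was -1.28 for Atf3, -0.47 for Egr3, -0.46 for Zfp36l1, -0.41 for Malat1, -0.27 for Scd2 and -0.16 for Spp1. At 90 min alone it was 0.83 for Grb10, -0.62 for Timp1, -0.49 for Egfr, 0.20 for Mdm2 and -0.17 for Timp2.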

How the results depend on the processing

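Under 15 alternatives, 131 of 136 genes named kept their direction and their side of the threshold, and of 2034 values 2022 did. The exceptions were Kat5 (-0.17 with upper-quartile scaling, -0.16 with protein-coding genes alone), Otud7b (-0.06 with no filter, -0.05 without WT library b and without p65 KO library a), Rel (-0.13 with upper-quartile scaling), Tnip2 (0.37 in DESeq2) and Mki67. Mki67, not called at -0.01, was called at -0.10 with upper-quartile scaling and with protein-coding genes alone, and changed sign uncalled to 0.02 with no filter, 0.01 without WT library b and 0.00 without p65 KO library b (between -0.02 and 0.01 with a library left out). Upper-quartile scaling and the protein-coding fit moved the median of all genes by -0.094 and -0.091, and the share of calls that were higher lay between 44.7% and 49.9%.

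The count of genes called in the untreated comparison lay between 12060 (DESeq2) and 13879 (no filter). The count past 2-fold lower was 2178 with protein-coding genes alone, where fewer genes are tested, and 3718 to 3757 with a library left out. The count of genes whose line difference changed was 691 at 45 min and 489 at 90 min in DESeq2, and 858 to 999 and 581 to 777 with a library left out, and the cause was not tested. Of the lists, chemokines past 2-fold higher were 4 with only the 4 libraries fitted. Metalloproteinase and TIMP genes past 2-fold higher were 3 with no filter and 1 to 2 with a library left out, and contractile genes 1 with no filter. With a library left out, the lone library is assumed to vary like the other groups. Over genes of at least 2 CPM the chromosome medians were -0.20 (chromosome 1), 0.38 (2), 0.38 (4), 0.54 (6), -0.64 (12), 0.52 (15), 0.44 (17), -0.46 (18) and 0.41 (X). With RefSeq's whole windows, the strict κB motif was in 1.62% of all, 1.79% of the higher and 1.43% of the lower genes. No paired analysis was possible because the columns carry no replicate numbers.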

Other observations

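The lists here stand beside 39.8% of all genes called higher and 41.1% lower in untreated p65 KO. By the 2-fold rule these shares were 12.1% and 23.1%. Of 20 glycolysis genes tested, 11 were called higher and 6 lower, and by the 2-fold rule 5 were higher and 1 lower, with a median of 0.21. Pfkfb3, whose product raises the main activator of phosphofructokinase, stood at 7.88 and 7 CPM in WT and 33.9 and 32.9 CPM in p65 KO, a difference of 2.16 ± 0.08 with no overlap. Of 18 replication-dependent histone genes, 14 were called higher and 2 lower, 1 in each direction past 2-fold, with a median of 0.43. Hist1h1b, a linker histone gene, stood at 217 and 229 CPM in WT and 400.3 and 414 CPM in p65 KO. Mitochondrially encoded mRNAs were called higher in 11 and lower in 1 of 13, with 2 past 2-fold higher, and their summed level was 16400 to 16800 CPM in WT and 24500 to 25700 CPM in p65 KO. At 45 and 90 min of TNF, 0 of the 13 were past 2-fold in either direction, with medians of 0.33 and 0.19 against 0.53 untreated.

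Of 8 retinoic acid pathway genes, 1 was higher and 2 lower by the 2-fold rule. Cyp26b1, which breaks down retinoic acid, stood at 93.8 and 97.8 CPM in WT and 8.47 and 9.45 CPM in p65 KO, a difference of -3.42 ± 0.06 with no overlap. Of the sex chromosome list 5 genes were tested, 3 called higher and 1, Xist, lower, and of the germline list 1 gene was tested and was lower.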
